A study of Mus musculus with 5 samples.

Results

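The 9 genes described here encode proteins that bind actin filaments or tie them to the cell membrane: Actn1, Tpm1, Cald1, Tmod3, Myo6, Abi2, Tln2, Sorbs2 and Epb4.1l1. They are 9 of the 457 named genes in the authors' deposited table of splicing events that differed after knockdown of PQBP1, a nuclear protein of the splicing machinery. A gene enters that table only if at least 1 event passed the authors' p, so the 9 were selected on these measured values, and every value below describes listed events without a test of its own. Among the 9, the event with the largest smallest p, in Sorbs2, stood at 0.0497 in the authors' deposited table. Over all events of the authors' deposited table the smallest p of an event was always under 0.05, and events above that threshold are not listed.

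Neurons were taken from the cortex of C57BL/6 mouse embryos at stage E16.5 and collected after 5 days in culture. In the PQBP1 knockdown group (2 samples) the cells carried lentivirus with a hairpin RNA directed at PQBP1. In the mock knockdown group (3 samples) they carried lentivirus with a hairpin that has no target, so both groups shared strain, age, virus and culture. The labels name a single kind of targeting hairpin and do not record separate cultures behind the samples, so the spread that enters the authors' p-values may be technical. PolyA RNA was sequenced. Splice junctions of the table have a log2 fold, knockdown over mock knockdown, and, for 1389 of 1402, a p-value, and there are no counts, no values per sample and no gene levels. The depth, the spread between replicates, the level of Pqbp1 after knockdown and the markers of neurons or other cell types were therefore not checked here.

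Actin filaments form the cortex, the growth cone and the dendritic spine of a neuron. Their behaviour is set by crosslinkers such as alpha-actinin, by proteins that lie along the filament such as tropomyosin and caldesmon, by caps on the filament ends, by nucleation complexes, and by anchors that link filaments to integrins or to the spectrin layer under the membrane. Many of these genes make several proteins by alternative splicing, in which a cassette exon is kept or skipped, or one of several first or last exons is used.

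An event in the table is a set of junctions that share 1 splice site and differ at the other. The 9 genes have 15 events with 34 junctions, of 585 events with 1402 junctions in all. For an event of 2 junctions the change is given as a ratio: the use of the nearer junction over that of the farther one in knockdown, relative to the same quotient in mock knockdown. A ratio of 1 is no change, and for a cassette exon a ratio below 1 means more skipping in knockdown cells. Positions are 1-based and refer to mm10, with exons from GENCODE M21. In each sequence below, read 5' to 3' on the transcript strand, the 12 lower-case bases on either side of a capitalised exon are the ends of its neighbours, unless stated otherwise.

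**Figure D1:**
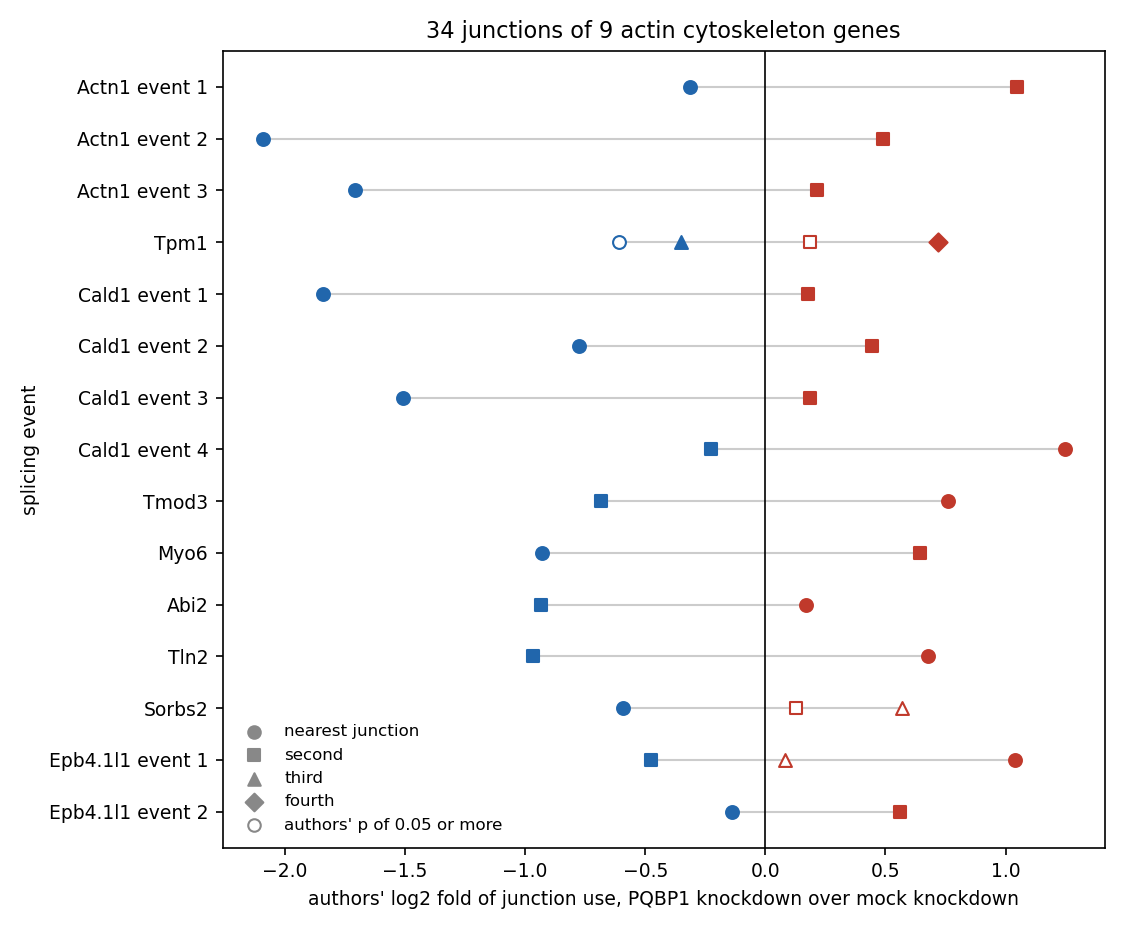
Authors' log2 fold (knockdown over mock knockdown, horizontal axis) of each of the 34 junctions, 1 row per event, with events of a gene numbered in the order of the table. Filled points have a deposited p under 0.05 (29 junctions) and open points do not (5 junctions), red points lie above 0 and blue points below 0, and the marker shape gives the junction's place by distance from the shared site. The lowest point is the junction that joins the alternative exons of Actn1, at -2.09.

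Actn1 encodes alpha-actinin-1, an antiparallel dimer that crosslinks actin filaments. All 3 of its events concern a pair of neighbouring coding exons on the minus strand of chromosome 12. The junction into the longer exon fell in the first event, and the junction that joins both exons fell in the others. In the human gene these exons encode part of the calcium-binding EF-hand region: the longer exon belongs to the non-muscle form, the shorter one to the smooth-muscle form, and a brain form carries both. The sequences of the exons are shown because the events turn on which of them is spliced between the same neighbours.
Actn1 exon of 81 bases, chr12:80170686-80170766: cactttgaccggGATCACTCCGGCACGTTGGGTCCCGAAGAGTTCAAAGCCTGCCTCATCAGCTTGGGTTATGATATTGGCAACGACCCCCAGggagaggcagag
Actn1 exon of 66 bases, chr12:80170183-80170248: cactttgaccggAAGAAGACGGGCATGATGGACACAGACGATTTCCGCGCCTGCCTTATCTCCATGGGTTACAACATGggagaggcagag
The capitals mark the exons. The exon of 81 bases encodes 27 codons and that of 66 bases 22 codons, and 42 of 66 aligned bases (63.6%) are identical. Annotated reading frames have 892 codons with the longer exon and 887 with the shorter one.

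The first event of Actn1 starts at the exon of 147 bases upstream of both. The junction into the longer exon had a log2 fold of -0.31 and that into the shorter exon 1.05 in the authors' deposited table (p = 0.00409). The first of these junctions over the second stood at 0.390 times its value in mock knockdown cells, so use moved towards direct entry into the shorter exon. The junction into the longer exon also serves transcripts with both exons, so this ratio does not set 1 exon against the other alone. The second event ends at the shorter exon, which is reached either through the longer exon or directly. The junction that joins both exons had a log2 fold of -2.09 and the direct junction 0.49 in the authors' deposited table (p = 0.00580), a ratio of 0.167. The third event starts at the longer exon, which continues to the shorter exon or past it to the next one of 159 bases. Here the joining junction had a log2 fold of -1.71 and the bypassing one 0.21 in the authors' deposited table (p = 0.0370), a ratio of 0.264. Transcripts with both exons, the form known from human brain, were thus used less relative to either alternative, although the junction that joins the exons is not annotated in the mouse gene models. It is counted in both of these events, as is the direct junction in the first and second, so the 3 events are not independent.

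The folds of a 2-junction event also imply the share of each junction in both groups, if they are changes of relative use and the 2 uses add up to the whole. Under that assumption the joined form made up 8.12% of junction use into the shorter exon in knockdown cells and 34.6% in mock knockdown cells. Of junction use out of the longer exon it made up 5.72% in knockdown cells and 18.7% in mock knockdown cells. The last pair can also be computed from the other 2 events, which gave 4.15% in knockdown cells and 9.69% in mock knockdown cells. The estimates differ 1.38 times in knockdown cells and 1.93 times in mock knockdown cells but share their direction, so implied shares are approximate. The junction into the longer exon held 68.1% of use at the upstream donor in knockdown cells, against 84.5% in mock knockdown cells. It stayed the main junction there, and its share includes transcripts with both exons.

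**Figure D2:**
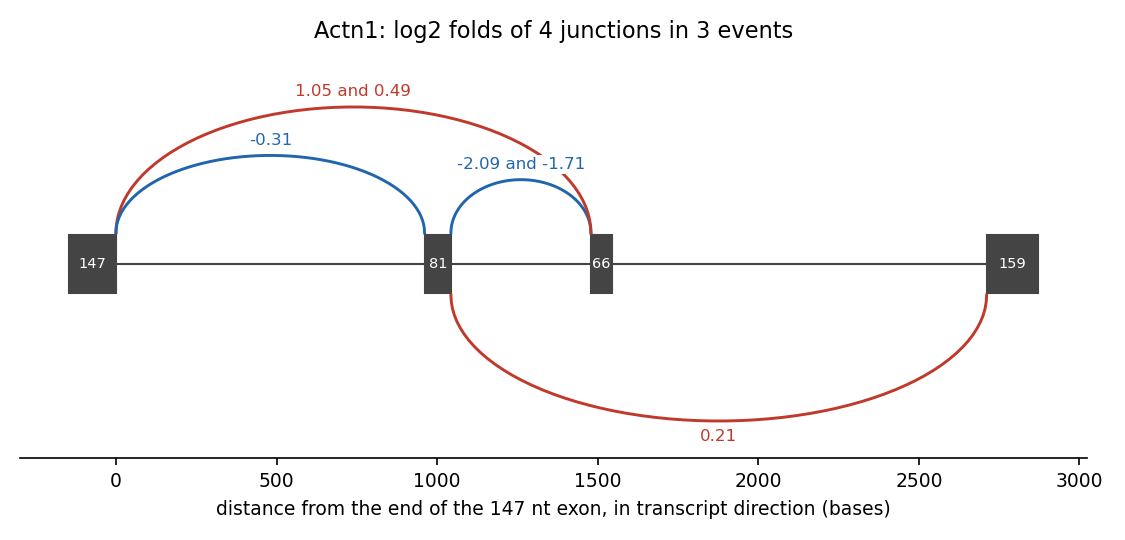
Map of the Actn1 exon pair in transcript direction, with distance in bases from the end of the exon of 147 bases on the horizontal axis. Boxes are exons and arcs are junctions, labelled with the authors' log2 folds of each event they belong to. The arc that joins the exons of 81 and 66 bases carries the lowest folds, -2.09 and -1.71.

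Tpm1 encodes alpha-tropomyosin, a coiled coil that lies along the actin filament and governs the access of other proteins. Its only event is the choice between the 4 ends of the protein at the shared donor of an exon of 70 bases (chr9:67031029-67031098, minus strand), and it moved towards the most distal one. The junction to this distal exon had a log2 fold of 0.72 in the authors' deposited table (p = 0.000173). The brain-type exon, which in rodents gives the tropomyosin end known from brain and lies next to the distal one, had a log2 fold of -0.35 in the authors' deposited table (p = 0.00695). Set against the distal end, the brain-type end was at 0.477 times the mock ratio. The other 2 ends did not pass the authors' test. For the nearest exon, known from striated muscle, the authors' deposited table gives a log2 fold of -0.61 (p = 0.0954), and for the second exon it gives 0.19 (p = 0.678). These are the coding bases of the 4 choices, which give tropomyosin different carboxyl ends.
Tpm1 nearest exon of 79 bases, chr9:67029664-67029742: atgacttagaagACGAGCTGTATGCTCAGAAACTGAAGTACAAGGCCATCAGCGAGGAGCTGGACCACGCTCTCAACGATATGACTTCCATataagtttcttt
Tpm1 second exon, coding part, chr9:67028076-67028167: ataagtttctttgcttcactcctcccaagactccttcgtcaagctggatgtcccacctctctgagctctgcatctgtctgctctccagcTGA
Tpm1 brain-type exon, coding part, chr9:67024492-67024565: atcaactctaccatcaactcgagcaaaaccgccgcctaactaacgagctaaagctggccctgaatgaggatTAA
Tpm1 distal exon, coding part, chr9:67023359-67023441: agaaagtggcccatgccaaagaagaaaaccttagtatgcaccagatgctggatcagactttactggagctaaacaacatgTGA
Capitals mark the whole internal exon in the first and the stop codon in the others. The second, brain-type and distal exons hold 89, 71 and 80 coding bases before the stop. Also relative to the distal end, the nearest exon was at 0.399 times and the second exon at 0.691 times the mock ratio. The second exon was at 1.45 times relative to the brain-type one.

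**Figure D3:**
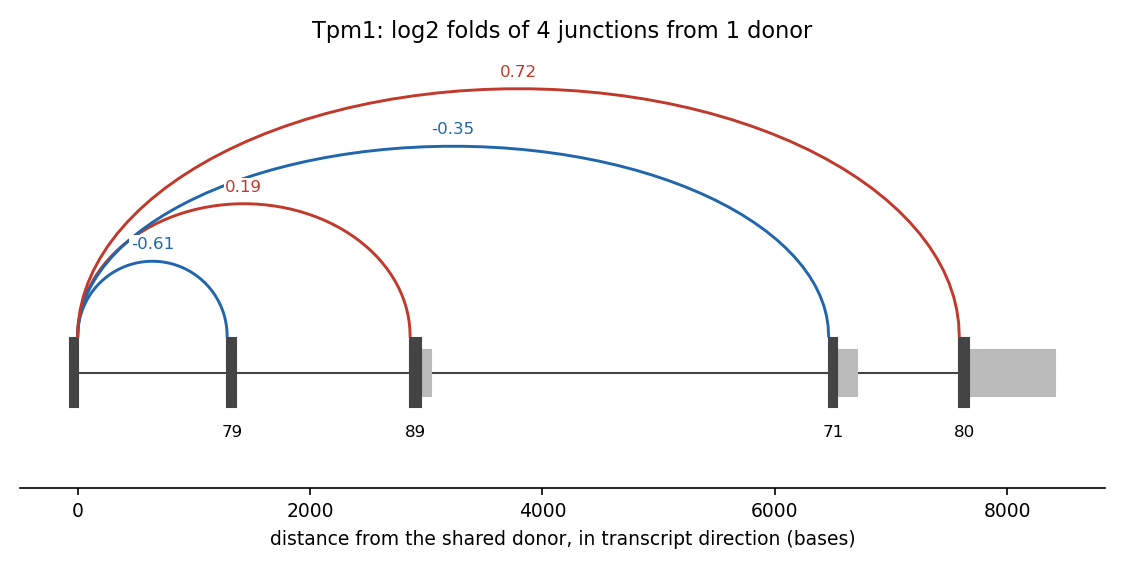
Map of the Tpm1 choice of ends in transcript direction, with distance in bases from the shared donor on the horizontal axis. Arcs run from the donor to the 4 exons and carry the authors' log2 folds, and the coding bases of each exon stand below it. Of the junctions with p under 0.05, the distal one is higher in knockdown cells (0.72) and the brain-type one is lower (-0.35).

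Cald1 encodes caldesmon, which binds actin and tropomyosin and inhibits the ATPase of myosin. It has 4 events, and only 3 genes of the table have as many or more, itself included. Its listed events lie on the plus strand of chromosome 6, and they moved in different directions: 1 exon was skipped more, another was kept more, and the choice of the amino end shifted. The entry site is not annotated, so the first and the third event are read by position as the sides of 1 exon. Its entry junction had a log2 fold of -1.84 and the skipping junction 0.18 in the authors' deposited table (p = 0.0147), a ratio of 0.247. Its exit junction had a log2 fold of -1.51 and the skipping junction 0.19 in the authors' deposited table (p = 0.0247), a ratio of 0.310. Read so, inclusion was lower from either side, and both events count the same skipping junction. The implied inclusion was low in either group, at 4.33% and 6.14% from the pair of sides in knockdown cells, against 15.5% and 17.4% in mock knockdown cells.

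The listed junctions bound this Cald1 exon at chr6:34769530-34769662, which is 133 bases and no multiple of 3. The gene models hold an exon of 114 bases with the same end that starts 19 bases further downstream, in a transcript annotated as a target of nonsense-mediated decay. Its reading frame ends inside the exon after 102 coding bases. The coding part of the annotated form is shown with its stop codon in capitals, because it closes the frame of an annotated decay target. Whether the listed form, which starts 19 bases earlier, meets the same stop was not determined.
Cald1 exon of 114 bases, coding part and stop, chr6:34769549-34769653: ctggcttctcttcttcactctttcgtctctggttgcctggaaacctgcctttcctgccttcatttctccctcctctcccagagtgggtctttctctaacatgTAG
The fourth event is a cassette exon of 84 bases (28 codons) with more inclusion in knockdown cells. For inclusion the authors' deposited table gives a log2 fold of 1.25, and for skipping -0.22 (p = 0.0250). The ratio was 2.77 times that in mock knockdown cells, with an implied inclusion of 22.6% in knockdown cells and 9.53% in mock knockdown cells.
Cald1 exon of 84 bases, chr6:34747886-34747969: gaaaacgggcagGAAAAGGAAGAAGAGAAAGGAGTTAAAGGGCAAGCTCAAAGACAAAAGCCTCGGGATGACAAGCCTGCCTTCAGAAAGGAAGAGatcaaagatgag

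The second Cald1 event is a choice of first coding exons, which give caldesmon different amino ends, across introns of 32091 and 55714 bases. The junction from the nearer, downstream exon had a log2 fold of -0.78 and that from the upstream exon 0.44 in the authors' deposited table (p = 0.0190). Nearer over farther stood at 0.430 times its value in mock knockdown cells, and the nearer exon had an implied use of 27.01% in knockdown cells and 46.3% in mock knockdown cells. The coding parts below have 53 and 71 bases and start with the start codon, in capitals.
Cald1 nearer first coding exon, chr6:34709645-34709697: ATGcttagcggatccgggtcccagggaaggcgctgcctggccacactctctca
Cald1 farther first coding exon, chr6:34686004-34686074: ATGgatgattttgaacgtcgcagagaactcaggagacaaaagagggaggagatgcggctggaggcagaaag

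Tmod3 encodes tropomodulin-3, which caps the pointed end of actin filaments together with tropomyosin. Its event, on the minus strand of chromosome 9, sets a nearer last exon against a farther exon. It moved towards the nearer one, which ends the protein early. The log2 fold was 0.76 for the nearer and -0.69 for the farther junction in the authors' deposited table (p = 7.54e-05), a p that ranked 10 among the 585 events. The nearer exon was used at 2.73 times the mock ratio, and its implied share was 59.7% in knockdown cells and 35.2% in mock knockdown cells. The nearer exon (chr9:75520900-75521378) has 35 coding bases before its stop, and the annotated frame that ends there has 106 codons. The complete annotated frame that uses the farther junction has 352 codons. Another, of 107 codons, ends in a farther exon of 38 bases but is annotated as incomplete. The coding end of the nearer exon is shown with the stop codon in capitals.
Tmod3 nearer last exon, coding part, chr9:75521341-75521378: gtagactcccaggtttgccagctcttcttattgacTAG

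Myo6 encodes myosin VI, the motor that walks towards the pointed end of actin filaments, and Abi2 a subunit of the WAVE complex, which activates branched actin nucleation. Each has 1 event, a very short coding cassette exon, and they moved in opposite directions. The Myo6 exon of 27 bases (9 codons) encodes the small insert of the tail and was skipped more in knockdown cells. For inclusion the authors' deposited table gives a log2 fold of -0.93, and for skipping 0.64 (p = 0.0381). The ratio was 0.336 times that in mock knockdown cells, and the implied inclusion was 28.5% in knockdown cells and 54.3% in mock knockdown cells. The Abi2 exon of 18 bases (6 codons) was kept more. For inclusion the authors' deposited table gives a log2 fold of 0.17, and for skipping -0.93 (p = 0.0426), a ratio of 2.15. The rarer skipping junction of Abi2 had the larger log2 fold. The implied inclusion was 89.0% in knockdown cells and 79.1% in mock knockdown cells.
Myo6 exon of 27 bases, chr9:80303273-80303299: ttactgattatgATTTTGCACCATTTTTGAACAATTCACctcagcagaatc
Abi2 exon of 18 bases after the end of its intron, chr1:60438902-60438959: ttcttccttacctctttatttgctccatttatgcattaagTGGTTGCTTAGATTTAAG
These exons are in capitals, and both lie on the plus strand. Their GC content is low, at 29.6% in Myo6 and 33.3% in Abi2. For Abi2 the lower-case letters are the last 40 bases of the intron, read from a transcript that retains it. They end in AG and hold 30 pyrimidines (75%).

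Tln2 encodes talin-2, which links integrins in the membrane to actin. Its event is an alternative 5' splice site on the minus strand of chromosome 9, and it moved towards the longer form of the exon. The junction from the nearer donor, which ends an exon of 228 bases, had a log2 fold of 0.68 in the authors' deposited table (p = 0.0276). The farther donor, which ends the exon after 183 bases, had a log2 fold of -0.97 in the authors' deposited table. Its ratio, 3.12, was the highest among the members' 12 events of 2 junctions, and the longer form had an implied use of 71.8% in knockdown cells and 44.9% in mock knockdown cells. The 45 bases between the donors add 15 codons, and they begin with GT, the first letters of the intron when the farther donor is used.
Tln2 bases between the donors, in capitals, after the last 30 bases of the shorter exon, chr9:67227063-67227107: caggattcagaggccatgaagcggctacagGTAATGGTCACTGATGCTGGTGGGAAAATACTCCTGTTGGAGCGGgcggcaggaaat

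Sorbs2 encodes an adaptor with SH3 domains that binds vinculin and other proteins at actin-rich adhesions. Its event has 3 junctions that share the acceptor of an exon of 50 bases on the plus strand of chromosome 8. The junction from the nearest exon, of 57 bases (19 codons), was lower in knockdown cells, with a log2 fold of -0.59 in the authors' deposited table (p = 0.0497). The junction from an exon of 115 bases further upstream, which skips the others, had 0.57 (p = 0.0595), and that from an exon of 159 bases 0.13 (p = 0.897), also in the authors' deposited table. Only the first of the 3 passed the authors' threshold, and its ratio to the junction from the exon of 115 bases was 0.447.
Sorbs2 exon of 57 bases, chr8:45785269-45785325: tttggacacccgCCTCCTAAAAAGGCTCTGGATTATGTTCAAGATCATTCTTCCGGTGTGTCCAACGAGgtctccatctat

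Epb4.1l1 (Epb41l1 in the gene models) encodes protein 4.1N, the neuronal member of the band 4.1 family, which joins spectrin and actin to membrane proteins. It has 2 events on the plus strand of chromosome 2. In the first, a choice among non-coding exons, use moved towards an internal first exon. In the second, the joint skipping of 2 coding exons became more frequent. The first event has 3 junctions that share the acceptor of an exon of 191 bases, and its smallest p ranked 7 among the 585 events. The junction from the internal first exon (chr2:156475534-156476006) had a log2 fold of 1.04 in the authors' deposited table (p = 2.99e-05). The junction from a non-coding exon of 49 bases further upstream had -0.48 (p = 6.87e-05) in the authors' deposited table. The direct junction from the upstream first exon had 0.08 (p = 0.895) in the authors' deposited table. The internal exon thus gained relative to both, at 2.86 times the mock ratio against the exon of 49 bases and 1.94 times against the upstream first exon. The exon of 49 bases was at 0.678 times against the upstream first exon. All 3 choices are annotated with the same frame of 879 codons, since none of these exons codes.

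A junction that leaves a first exon reads which start was used, so promoters of Epb4.1l1 are shown. The exon of 49 bases is annotated as internal, so its junction does not name a start. Each line gives the 250 bases before a start annotated by RefSeq on GRCm38.p6 (the assembly of mm10), with CpG dinucleotides in capitals.
Epb4.1l1 promoter of the most upstream start, chr2:156420659-156420908: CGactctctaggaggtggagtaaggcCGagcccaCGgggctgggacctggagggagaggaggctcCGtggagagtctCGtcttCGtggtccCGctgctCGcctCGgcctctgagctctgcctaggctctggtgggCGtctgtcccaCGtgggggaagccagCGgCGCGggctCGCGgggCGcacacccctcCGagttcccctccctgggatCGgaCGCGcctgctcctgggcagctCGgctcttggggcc
Epb4.1l1 promoter of the internal start, chr2:156475284-156475533: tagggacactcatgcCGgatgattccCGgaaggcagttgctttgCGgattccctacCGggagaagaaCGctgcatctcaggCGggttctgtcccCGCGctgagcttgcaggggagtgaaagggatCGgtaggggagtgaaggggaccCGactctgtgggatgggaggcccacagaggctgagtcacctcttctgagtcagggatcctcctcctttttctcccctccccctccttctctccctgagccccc
The promoter of the most upstream start holds 22 CpG dinucleotides at a GC content of 71.2%, and the internal one 10 at 61.2%. The median was 6 over 32851 promoters of the same length. However, the RefSeq start nearest to the upstream first exon of the event (chr2:156421101-156421299) is another, at 156421091. The promoter of that start holds 29 CpG dinucleotides and 2 GGGCGG and overlaps the first. Neither of the printed promoters holds TATAAA or GGGCGG on either strand, which 12.4% and 32.7% of all promoters do. In Cald1, the promoter of the start before the nearer first exon has 4 CpG dinucleotides and 1 TATAAA, and that of the farther transcripts has 5 and none.

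In the second event of Epb4.1l1, exons of 87 and 84 bases are skipped together by an unannotated junction. The junction from the second of these exons had a log2 fold of -0.14 and the skipping junction 0.56 in the authors' deposited table (p = 0.0459). Its ratio, 0.616, was the smallest change among the members' 12 events of 2 junctions, and the implied use of the nearer junction was 76.4% in knockdown cells and 84.0% in mock knockdown cells. Together the exons hold 171 bases, or 57 codons, so the frame is kept when both are skipped.
Epb4.1l1 exon of 87 bases, chr2:156533781-156533867: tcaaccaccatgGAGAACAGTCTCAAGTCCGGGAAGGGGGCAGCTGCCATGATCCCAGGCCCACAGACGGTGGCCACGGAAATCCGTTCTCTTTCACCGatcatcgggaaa
Epb4.1l1 exon of 84 bases, chr2:156534686-156534769: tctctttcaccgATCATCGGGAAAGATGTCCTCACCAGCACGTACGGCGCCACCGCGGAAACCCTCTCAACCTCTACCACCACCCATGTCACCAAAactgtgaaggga

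**Figure D4:**
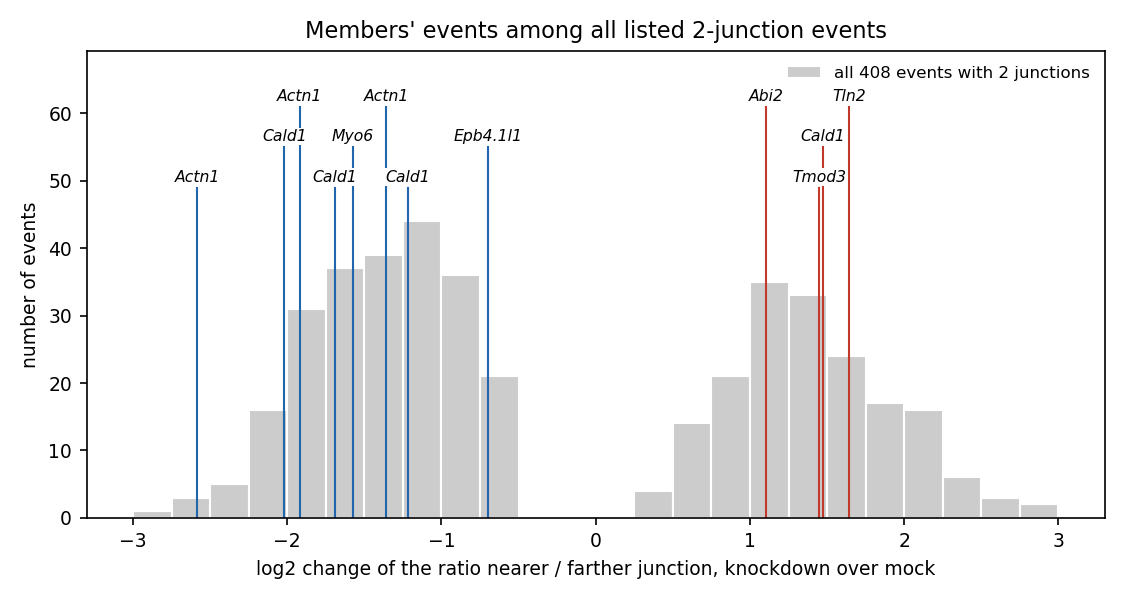
Change of the ratio (log2, nearer minus farther junction, knockdown over mock knockdown) for the members' 12 events of 2 junctions, above the distribution of the same measure over all 2-junction events of the table. The members lie between -2.58 in Actn1 and 1.64 in Tln2, and 8 of the 12 lie below 0.

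Across the members the events were of many kinds. Of the 12 events with 2 junctions, 7 were typed as cassette exons. The 3 events of Actn1 are among these only through the unannotated junction that joins its exons, which are otherwise alternatives to each other. The others were 1 alternative 5' splice site, 1 alternative first exon and 1 alternative last exon. The rest were 1 pair of exons skipped together and 1 exon with an unannotated site. The nearer junction was lower in knockdown cells in 8 of the 12 (66.7%), beside 57.1% over the table. With each exon counted once it was lower in 6 and higher in 4, and with annotated junctions alone it was lower in 4 and higher in 4. The median size of the change was 1.52 on the log2 scale (range 0.70 to 2.58), beside 1.36 over all 2-junction events of the table (interquartile range 1.01 to 1.74). A p under 0.05 was given to 29 of the members' 34 junctions, beside 76.2% of all junctions with a p. These shares were set by the selection and nothing is read from them. Since Actn1 gives 3 of the 8 lower events and Cald1 another 3, most of the balance rests on these genes.

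The implied shares moved by a median of 14.8 percentage points over the 12 events, with sizes between 7.62 points for the paired exons of Epb4.1l1 and 26.9 points for Tln2. In Tmod3, Tln2 and Myo6 the form with the larger implied use differed between the groups. In the other events the main form was the same in knockdown and mock knockdown cells.

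**Figure D5:**
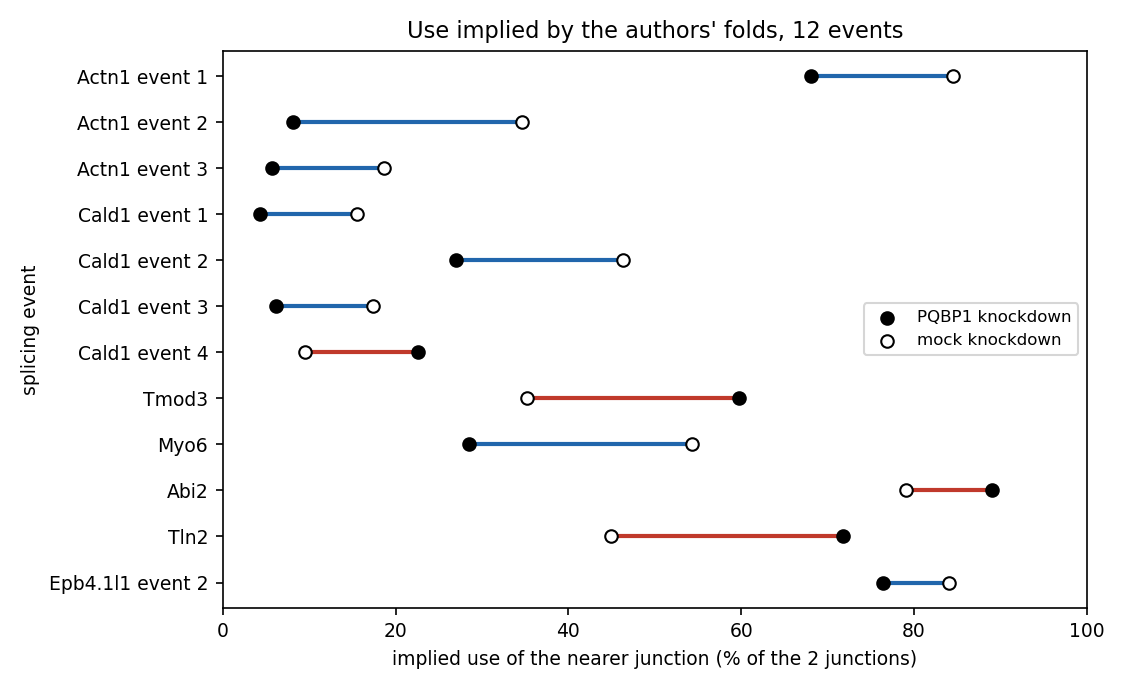
Implied use of the nearer junction in percent for the members' 12 events of 2 junctions, in knockdown cells and in mock knockdown cells, under the assumption that the uses of both junctions add up to the whole. Tmod3 and Tln2 lie above 50% in knockdown cells and below it in mock knockdown cells, and Myo6 lies the other way.

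Measures that the selection did not use were described too, without a test. Of the members' 34 junctions, 30 (88.2%) equal an annotated intron, beside 84.1% over the table, and 33 have both splice sites annotated. Counted once each, the 6 cassette exons of Actn1, Cald1, Myo6 and Abi2 had a median length of 73.5 bases, beside 90 bases over 225 cassette exons of the table. Those of Actn1 are included as typed above. In all 6 the annotated length is a multiple of 3, beside 66.2% over the table. The listed length of the Cald1 exon whose annotated form carries a stop is none, as given above. Coding over their whole length were 5 of the 6, beside 77.3% over the table. The other is the Cald1 exon whose annotated form carries a stop. Of the 6 exons 2, those of Myo6 and Abi2, have 27 bases or fewer, beside 10.7% of the table's exons. The median GC content of all 6 exons was 48.7%, beside 51.5% over the table. The farther intron of the members' 2-junction events had a median of 5571 bases, beside 3814.5 bases over all.

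Other genes of actin regulation were taken from a list of 156, of which 13 (8.33%) have an event, with 19 events in all. Since the table lists only genes with an event, the share over all genes is unknown. Of their 17 events of 2 junctions, the nearer junction was higher in 5 and lower in 12, beside 57.1% lower over the table. Their median size was 0.95 on the log2 scale, beside 1.36. Abi2 has a partner among them: Nckap1, another subunit of the WAVE complex, included an exon of 18 bases at 1.93 and 1.54 times the mock ratio from its sides, and another event of Nckap1 was at 0.572 times. Exons with a lower ratio in knockdown cells were those of Ablim1, an actin-binding LIM protein (105 bases, 0.266 and 0.252 times), Ppp1r9a, the spine protein neurabin (24 bases, 0.285 times), and Limk1, the kinase of cofilin (60 bases, 0.390 times). Ctnna2, alpha-N-catenin, was at 0.549 and 0.598 times (144 bases), and Evl, of the Ena/VASP family, at 0.691 times (63 bases). Macf1, the linker of microtubules and actin, was at 3.27 times with an exon of 18 bases. Spire1, an actin nucleator, was at 1.65 times with an exon of 39 bases, beside an event of several junctions. Mprip, which binds myosin phosphatase, had an exon of 66 bases at 0.541 times and a far longer one, of 3804 bases, at 1.73 times. For Zyx, the adhesion protein zyxin, the authors' deposited table gives an event of several junctions with log2 folds between -0.58 and 1.49.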

How the data were processed

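Per the labels' protocols, polyadenylated RNA of 5 samples was purified with an RNeasy kit and libraries were built with the IntegenX PrepX mRNA kit. The submitters' processing notes name TopHat2 2.0.4 and the mm10 assembly. Not given in the sources used here are the counting of junctions, the test behind the p-values, the filters and any pooling.

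Per the file headers, the authors' table holds a p-value and a log2 fold per junction, with the knockdown on top. The deposited p-value is taken as unadjusted, since no adjustment is named. The deposited log2 fold is read as relative use, because in all 408 events of 2 junctions both have opposite signs and the same p (relative tolerance 1e-06). The table has 1402 junctions, 13 without a p, and 1 of the 585 events has no gene name. Without counts or values per sample, depth, precision and replicate spread are unknown and no test was run.

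Adding 1 to each start and end gave introns that were compared with GENCODE M21. Event types and exons were reconstructed from those gene models. The procedure was checked only on single cassette exons drawn from the same models, and the other types were not checked. Changes of events subtract the farther junction's log2 fold as deposited from the nearer one's. Implied shares follow from solving both folds for uses that add up to the whole. Promoters come from RefSeq on GRCm38.p6. Python 3.11.15, NumPy 2.4.6, Biopython 1.88 and Matplotlib 3.10.9 were used.

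All members and all of their events are named. Of the other actin genes, the rule names the 12 with the smallest p, and 2 of these are not reported here. The members and the list of 156 actin genes were chosen with earlier results of these data known. The threshold is the authors' p of 0.05. Alternatives were stricter thresholds, annotated junctions alone, each exon counted once, a minimum size, longer exon forms, synonyms, a list without anchoring genes and shifted folds.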

Additional observations from a re-analysis of the deposited data

How the results depend on the processing

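No paired analysis was possible because the table holds no values per sample, and for the same reason no replicate could be left out. Of 21 alternatives, 15 stayed close to the reported value and 6 did not. A count was close if within 1.5 times of it. A median was close if it moved by less than the standard deviation across events or exons, which is a loose rule. The Actn1 alternatives were labelled as not close without a rule. The nearer junction was lower in 8 of the 12 member events of 2 junctions, but in 4 of 8 with annotated junctions alone, where the other 4 were higher, and in 2 of 3 with p under 0.01. Of the 34 member junctions, 10 had a p under 0.01 and 5 under 0.001, in place of 29. The share of joined Actn1 exons read from the other pair of events, an alternative chosen after seeing the data, was 4.15% in place of 5.72% in knockdown cells and 9.69% in place of 18.7% in mock knockdown cells, and the cause was not tested. The median size of the change ran from 1.45 to 1.57 on the log2 scale, and the median implied shift from 13.8 to 16.1 points when either fold was moved by 0.05. A planned search for motifs in the introns was not run. Depth is unknown, so what it limits could not be described.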

Other observations

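Among all cassette exons of the table, 5 have a length of 18 bases, a set picked out after the values of Abi2 and Nckap1 were seen. The exons of Abi2, Nckap1, Macf1 and Ewsr1, an RNA-binding protein, were included more in knockdown cells, at 1.54 to 3.27 times the mock ratio. The exon of Dync1i2, an intermediate chain of dynein, was included less, at 0.216 times. No test was made of a set chosen this way.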
